A study of Homo sapiens with 6 samples.

Results

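The genes described here are those of the EPB41 family, which encode the band 4.1 proteins of the membrane skeleton, together with CADM1, an adhesion molecule that binds one of them. Of 8 listed genes, 6 were among the 12703 genes analysed, namely EPB41, EPB41L1, EPB41L2, EPB41L3, EPB41L4B and EPB41L5, while EPB41L4A and CADM1 were not analysed here. EPB41L3 was chosen by its counts, which rose from near 0 with GCNT1 overexpression in these same libraries, so its change is given as a description with no test, and the others were taken because they belong to the same family.

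The libraries came from PC3 cells, an established human prostate cancer line derived from a bone metastasis. The control group was 3 PC3 lines transduced with negative-control lentiviral particles (Lenti-ORF control), and the other group was 3 PC3 lines transduced with particles carrying GCNT1, an enzyme that builds core 2 O-glycans. All 6 lines are stable lentiviral derivatives of the same parental line, and the labels call them biological replicates without saying whether the transductions were separate, so the p-values measure only the spread between these samples. The comparison asks which transcripts differ in level between cells with and without added GCNT1.

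Proteins of this family carry a FERM domain, a clover-shaped module that binds the cytoplasmic tails of membrane proteins. The products of EPB41, EPB41L1, EPB41L2 and EPB41L3 also have a domain that joins spectrin to actin, so that they anchor receptors and adhesion molecules to the cortical skeleton. The products of EPB41L4B and EPB41L5 lack that domain and are known for their part in epithelial polarity and in the tension of the junctional actomyosin ring. EPB41L3, also called DAL-1 or 4.1B, is best known as a growth-suppressing gene that is lost or silenced in several carcinomas, and its product binds the tail of CADM1.

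The deposited counts summed to between 11392213 and 13825704 per library, and a gene with 3 counts had between 0.213 and 0.259 CPM. GCNT1 itself had 9, 13 and 8 reads in controls against 13, 16 and 35 with overexpression, a log2 fold change of 0.98 (SE 0.37, edgeR, Benjamini-Hochberg adjusted p = 0.0362) that was 0.49 without overexpression replicate 3 (edgeR, Benjamini-Hochberg adjusted p = 0.269), so that its call rests on that library. The authors also examined GCNT1 in their overexpressing PC3 cells by real-time PCR, ELISA and immunocytochemistry, which these few reads do not replace. Of the epithelial markers (keratins, EPCAM and CDH1) 5 of 5 were measured, with a summed level of 822 to 869 CPM in controls and 626 to 710 CPM with overexpression. These 5 did not change alike, with log2 fold changes of -0.14 for KRT8, -0.18 for KRT18, -0.68 for KRT19, 0.09 for EPCAM and -1.71 for CDH1. KRT8 and EPCAM did not reach an adjusted p under 0.05 (edgeR, Benjamini-Hochberg). Of the prostate luminal markers 2 of 7 were measured, at 7.53 to 8.98 CPM in controls and 3.97 to 4.61 CPM with overexpression, and KLK2 and KLK3 were not among the genes analysed. Of the fibroblast markers 2 of 7 were measured (126 to 178 CPM in controls, 43.0 to 46.7 CPM with overexpression), of the endothelial markers 2 of 5 (148 to 166 and 47.7 to 63.4 CPM, of which KDR had a log2 fold change of -1.53 and PECAM1 one of 1.31), of the leukocyte markers 1 of 5 (83.4 to 94.4 and 80.0 to 89.5 CPM) and of the neuroendocrine markers 1 of 5 (2.70 to 3.47 and 1.12 to 1.89 CPM), while PTPRC, VWF, CDH5 and DCN were not among the genes analysed. The part of these levels in the results below was not tested.

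Where a gene starts is part of what sets its transcription, so the 250 bases before annotated starts are shown for the member that rose and for a pair of members that fell. They come from RefSeq (GRCh38.p14), they are written 5′ to 3′ on the strand of the gene, and capitals mark each CG dinucleotide. Windows were chosen that hold no annotated exon of the gene. The first is EPB41L3, at chr18:5628992-5629241 on the minus strand. It lies within the annotated span of the gene, which runs to 5630663, so it is not the sequence before the outermost end. The second is EPB41L5, at chr2:120012827-120013076 on the plus strand, and the third is an internal start of EPB41L2, at chr6:131013610-131013859 on the minus strand.
EPB41L3: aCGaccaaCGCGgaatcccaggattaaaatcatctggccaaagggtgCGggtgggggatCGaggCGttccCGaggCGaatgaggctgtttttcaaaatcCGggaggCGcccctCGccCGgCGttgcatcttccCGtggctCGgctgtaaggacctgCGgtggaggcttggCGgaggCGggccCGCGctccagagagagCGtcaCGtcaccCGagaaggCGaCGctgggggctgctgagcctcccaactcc
EPB41L5: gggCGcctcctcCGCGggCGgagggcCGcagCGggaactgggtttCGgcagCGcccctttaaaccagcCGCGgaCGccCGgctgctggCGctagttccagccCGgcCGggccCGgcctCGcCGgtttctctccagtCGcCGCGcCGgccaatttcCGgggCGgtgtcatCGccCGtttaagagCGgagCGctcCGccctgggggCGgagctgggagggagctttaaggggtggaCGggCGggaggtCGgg
EPB41L2: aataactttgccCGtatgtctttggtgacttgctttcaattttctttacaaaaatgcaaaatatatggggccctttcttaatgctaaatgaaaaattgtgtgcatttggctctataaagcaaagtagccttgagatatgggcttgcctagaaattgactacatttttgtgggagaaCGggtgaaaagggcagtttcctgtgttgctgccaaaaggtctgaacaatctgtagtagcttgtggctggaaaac
The EPB41L3 window held 25 CG dinucleotides, as many as or more than 80.4% of the 35116 windows of the table, whose median was 11. The EPB41L5 window held 33 and the internal EPB41L2 window held 2. A further 3 EPB41L3 starts are annotated, whose windows held 23, 4 and 2 CG dinucleotides, and a window at the first start of EPB41L2 held 35. Of the members measured, 5 had a window in the table, 14 windows in all, and EPB41L4B had none.

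Short motifs were counted in the same windows on both strands, and no motif searched lies within another. The GC box GGGCGG, which lies in 42.6% of all windows, had no match in the EPB41L3 window shown and 1 in its second window, 5 in the EPB41L5 window, and 5 at the first start of EPB41L2 but none in its other 3 windows, the one shown included. EPB41L1 had 0, 4 and 4 matches in its 3 windows, and EPB41 had 4 and 2. The CCAAT box CCAAT, in 32.0% of all windows, had no match in the 4 EPB41L3 windows and 1 match in the EPB41L5 window. The TATA box TATAAA, in 10.7% of all windows, was found only in the internal EPB41L2 window among the 14. The cyclic AMP element TGACGTCA, in 1.65% of all windows, was found only at the first start of EPB41, and the E-box CACGTG, in 6.34% of all windows, was found only at the fourth start of EPB41L3. The counts per gene do not tell which start was used.

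EPB41L3 (Entrez identifier 23136) spans positions 5392386 to 5630663 of chromosome 18 (hg38, as for all genes here). It was counted 1, 3 and 2 times in control libraries 1 to 3, at or under the floor of 3 counts in each, and 1017, 1155 and 1352 times in overexpressing libraries 1 to 3. In CPM the libraries read 0.0795, 0.241 and 0.169 in controls and 87.9, 84.1 and 95.8 with overexpression, or 0.163 ± 0.0809 against 89.3 ± 5.99 (SD, n = 3 each). All 3 overexpressing libraries were close to one another and far above all controls. The pooled ratio was 549-fold higher with overexpression (95% interval 252 to 1498, exact, covering counting error only), and its width comes from the 6 control counts. The interval takes no account of the spread between libraries or of how the gene was chosen, so it is a description and no test. In these bulk libraries a larger share of cells with EPB41L3 RNA and more RNA per cell cannot be told apart.

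Of 12703 genes, 20 had at most 3 counts in each control library, and all 20 were called higher with overexpression. They passed the filter on low counts only through the overexpressing libraries, so they had to differ. By CPM, which is not scaled for length, EPB41L3 ranked first of the 20 with overexpression, and the next had 35.1 CPM. EPB41L3 was chosen for its rise in these libraries, so this rank is a description only. Scaled by exon length, EPB41L3 stood at percentile 0.0963 of the analysed genes in controls and at percentile 56.3 with overexpression, that is, from the bottom of the distribution to just above its middle. LncRNA genes of the opposite strand lie within EPB41L3 without overlapping its exons, and none of them was among the genes analysed.

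The genes with the most similar profile to EPB41L3 were WWC3, FLT1 and SFTA1P. Likeness was the Euclidean distance between log2 CPM profiles over the 6 libraries, each centred on its own mean, and the median distance over all genes was 10.004. WWC3, on the X chromosome, was at a distance of 1.88 and had 3, 2 and 1 reads in controls against 417, 467 and 497 with overexpression. FLT1, which encodes the VEGF receptor VEGFR1, was at 3.34, and it had 31, 36 and 30 reads in controls against 1382, 1723 and 1679 with overexpression. SFTA1P, a pseudogene, was at 3.45, with 2, 3 and 4 counts in controls and 217, 217 and 206 with overexpression. These are lookalikes over 2 groups of 3, and a large rise is enough to place a gene here.

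**Figure D1:**
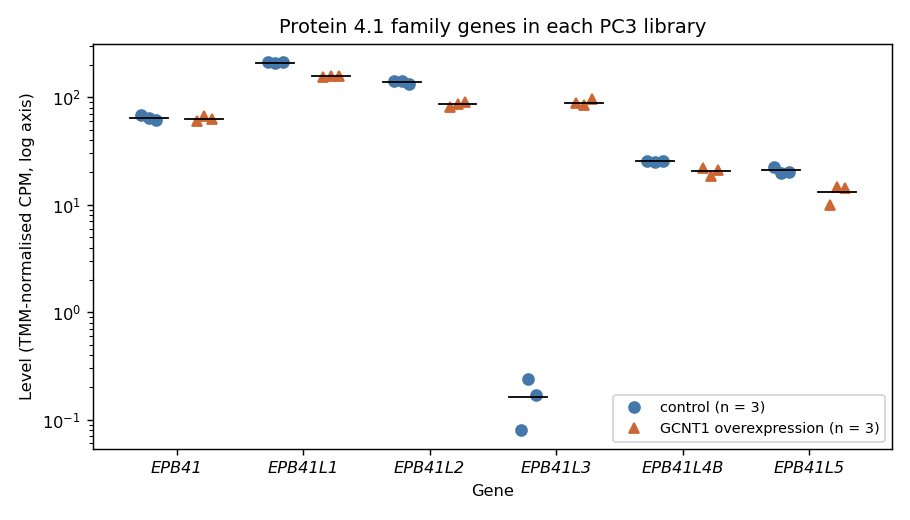
Level of each measured EPB41 family gene in each library, in TMM-normalised CPM on a log axis, with circles for the 3 control and triangles for the 3 GCNT1 overexpressing libraries and a line at each group mean. EPB41L3 goes from 0.163 to 89.3 CPM, 4 of the other genes are lower in all 3 overexpressing libraries, and EPB41 overlaps between the groups.

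None of the other 5 measured members was called higher. Levels of 4 of them fell at an adjusted p under 0.05, EPB41L2 and EPB41L5 by more than the fold change threshold and EPB41L1 and EPB41L4B by less, while EPB41 did not differ detectably. Their median log2 fold change was -0.42, against 0.00095 over all genes. Of these 5 genes, 2 were called (adjusted p under 0.05 and an absolute log2 fold change of at least 0.58), both lower. Over all 12703 genes 19.3% were called, 11.1% lower and 8.28% higher. On adjusted p alone 4 of the 5 passed and all 4 were lower, against 57.6% of all genes that passed, 29.3% lower and 28.3% higher, and in the same 4 genes the groups did not overlap, against 62.5% of all genes without overlap, 31.6% lower and 30.9% higher. With 5 genes these shares are a description, and nothing particular to the family is read from them.

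EPB41L2 (Entrez identifier 2037, chromosome 6 from 130839347 to 131063245) encodes 4.1G, the widely expressed member of the family. It had 1781, 1782 and 1556 reads in controls against 944, 1180 and 1277 with overexpression. In CPM the libraries read 142, 143 and 132 in controls against 81.6, 85.9 and 90.5 with overexpression, so that every overexpressing library was below every control. The log2 fold change was -0.69 (SE 0.06, edgeR, Benjamini-Hochberg adjusted p = 4.42e-07), which is 38.0% lower. It was called under all 13 alternatives run, with log2 fold changes from -0.73 to -0.63. In controls EPB41L2 had 139 ± 6.23 CPM (SD, n = 3) and with overexpression 86.0 ± 4.47 CPM (SD, n = 3).

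EPB41L5 (Entrez identifier 57669, chromosome 2 from 120013077 to 120179119) encodes a FERM protein that binds Crumbs and acts in junction remodelling and in the epithelial mesenchymal transition. It had 285, 246 and 240 reads in controls against 116, 203 and 202 with overexpression. In CPM that was 22.6, 19.8 and 20.3 in controls against 10.02, 14.8 and 14.3 with overexpression. The groups did not overlap, and overexpression replicate 1 was well below the other two overexpressing libraries. The log2 fold change was -0.67 (SE 0.12, edgeR, Benjamini-Hochberg adjusted p = 0.000448), which is 37.0% lower. Without overexpression replicate 1 it was -0.52 (edgeR, Benjamini-Hochberg adjusted p = 0.000156), still lower but under the fold change threshold, so the call of EPB41L5 rests on that library. A lncRNA gene of the opposite strand overlaps its exons, and whether the authors counted by strand is not given in the sources used here.

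EPB41L1 (Entrez identifier 2036, chromosome 20 from 36091414 to 36232799) encodes 4.1N, known from neurons, where it binds glutamate receptors. It had 2660, 2589 and 2494 reads in controls against 1781, 2178 and 2223 with overexpression. The CPM values were tight in both groups, 211, 208 and 211 in controls and 154, 159 and 158 with overexpression. The log2 fold change was -0.42 (SE 0.04, edgeR, Benjamini-Hochberg adjusted p = 3.93e-06), which is 25.4% lower. The fall was larger than the spread between replicates and smaller than the fold change threshold, and it stayed on that side of it under all 13 alternatives, from -0.43 to -0.37.

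EPB41L4B (Entrez identifier 54566, chromosome 9 from 109171974 to 109321059) encodes a FERM protein, also called EHM2 or LULU2, that activates myosin at cell junctions through the exchange factor encoded by ARHGEF18. It had 321, 311 and 303 reads in controls against 256, 255 and 298 with overexpression, or 25.5, 24.98 and 25.6 CPM against 22.1, 18.6 and 21.1 CPM. Every overexpressing library was below every control. The log2 fold change was -0.30 (SE 0.08, edgeR, Benjamini-Hochberg adjusted p = 0.00646), which is 19.0% lower and under the fold change threshold. ARHGEF18, named after its values were seen, had a log2 fold change of 0.13 (SE 0.05, edgeR, Benjamini-Hochberg adjusted p = 0.0504).

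EPB41 (Entrez identifier 2035, chromosome 1 from 28887100 to 29120041) encodes 4.1R, the founding member, which ties spectrin to actin under the red cell membrane. It had 862, 798 and 720 reads in controls against 695, 922 and 883 with overexpression, or 68.5, 64.1 and 60.9 CPM against 60.1, 67.1 and 62.6 CPM. The groups overlapped over most of their range. The log2 fold change was -0.03 (SE 0.06, edgeR, Benjamini-Hochberg adjusted p = 0.739), and its sign turned with library size in place of TMM, where it was 0.03. The exons of TMEM200B overlap those of EPB41 on the opposite strand.

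**Figure D2:**
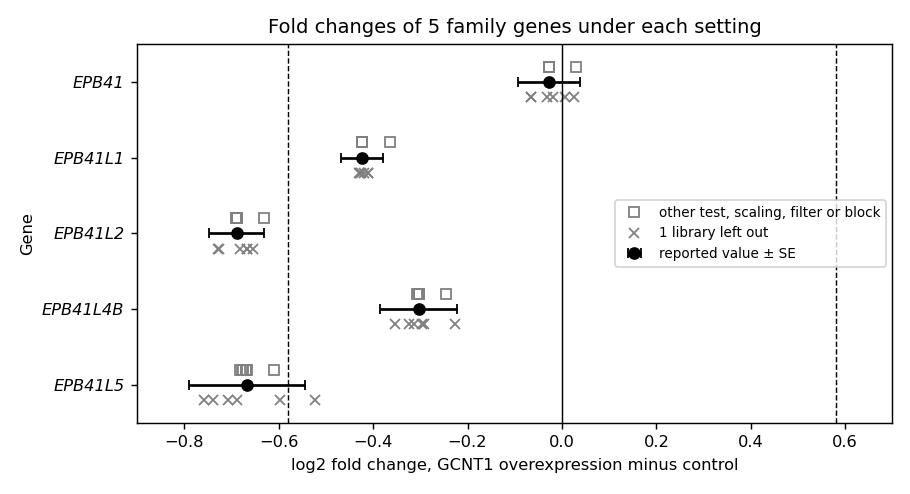
Log2 fold change (GCNT1 overexpression minus control) of the 5 measured genes other than EPB41L3, with circles and bars for the reported value and its standard error, squares for the other tests, scalings, filters and the replicate block, and crosses for fits with 1 library left out. Dashed lines mark 0.58 on either side of 0, which EPB41L5 crosses in 1 fit (-0.52), EPB41L2 in none, and EPB41 lies on both sides of 0.

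Levels between genes were compared per kilobase of annotated exon (CPM per kilobase). In controls the order was EPB41L1 with 21.7 ± 0.194 CPM per kilobase, EPB41L2 with 13.4 ± 0.604, EPB41 with 3.23 ± 0.191, EPB41L4B with 3.18 ± 0.0435, EPB41L5 with 2.27 ± 0.167 and EPB41L3 with 0.0134 ± 0.00663 (SD, n = 3 each). EPB41 and EPB41L4B did not differ beyond their spread. With GCNT1 overexpression EPB41L1 had 16.2 ± 0.254 CPM per kilobase, EPB41L2 8.33 ± 0.433 and EPB41L3 7.31 ± 0.491, followed by EPB41 with 3.16 ± 0.179, EPB41L4B with 2.58 ± 0.230 and EPB41L5 with 1.42 ± 0.285 (SD, n = 3 each). EPB41L3 thus was last of the 6 genes in controls and came after EPB41L1 and EPB41L2 with overexpression.

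The order depended on the length used. With the length of the Ensembl canonical transcript, a choice made once the data had been seen, EPB41L3 had 20.0 ± 1.34 and EPB41L2 19.6 ± 1.02 CPM per kilobase with overexpression (SD, n = 3 each), which do not differ beyond their spread. On that scale EPB41 had 10.7 ± 0.632 CPM per kilobase in controls and EPB41L4B 4.30 ± 0.0588, so that this pair was separated.

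As a share of the CPM per kilobase of the 6 genes, EPB41L3 held 0.0146%, 0.0450% and 0.0322% in control libraries 1 to 3 and 19.0%, 17.7% and 19.5% in overexpressing libraries 1 to 3. EPB41L1 held a mean of 49.5% in controls and 41.5% with overexpression, and EPB41L2 held 30.7% and 21.4%. The sum over the 5 genes other than EPB41L3 went from 43.8 ± 0.810 to 31.7 ± 0.898 CPM per kilobase, and the sum over all 6 went from 43.8 ± 0.807 to 39.0 ± 1.19 CPM per kilobase (SD, n = 3 each). The sum without EPB41L3 was 27.7% lower and the sum over all 6 was 11.1% lower, and in neither did the groups overlap. With the canonical lengths, again a choice made once the data had been seen, the sum without EPB41L3 was 27.3% lower, while the sum over all 6 was 83.4 ± 1.98 in controls and 80.6 ± 2.67 CPM per kilobase with overexpression (SD, n = 3 each), with groups that overlapped. Whether the summed level of the 6 genes differed thus depended on the length used.

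**Figure D3:**
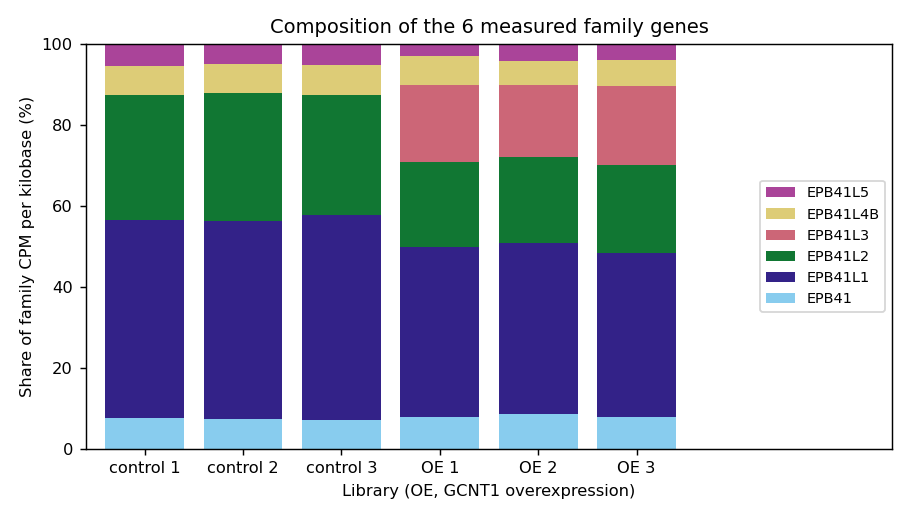
Share of each measured EPB41 family gene in the summed CPM per kilobase of the 6 genes, one bar per library, with colours for genes. EPB41L3 is not visible in the 3 control bars and takes 17.7% to 19.5% of the 3 overexpressing bars.

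The genes next to EPB41L3 on chromosome 18 changed in both directions. Of the 10 nearest analysed genes, 5 on each side, 1 was called higher and 4 lower, against 8.28% higher and 11.1% lower of all genes, and the 10 log2 fold changes had a median of -0.14 within a range of -2.03 to 0.95. On the side of the chromosome start the nearest was ZBTB14, a zinc finger gene 95.3 kb away, with 210, 208 and 190 reads in controls against 233, 237 and 269 with overexpression (log2 fold change 0.19, SE 0.09, edgeR, Benjamini-Hochberg adjusted p = 0.0800). On the other side the nearest was TMEM200C, a membrane protein gene 251 kb away, with 1306, 1269 and 1202 reads in controls against 312, 378 and 356 with overexpression. TMEM200C fell by 1.95 on the log2 scale (SE 0.06, edgeR, Benjamini-Hochberg adjusted p = 2.41e-11). The gene next to EPB41L3 on that side was thus 3.86-fold lower in the same libraries.

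The other called neighbours of EPB41L3, named after their values were seen, were LINC00667, L3MBTL4, ARHGAP28 and PTPRM. LINC00667 rose by a log2 fold change of 0.95, while L3MBTL4 fell by 2.03, ARHGAP28 fell by 0.65 and PTPRM fell by 0.72 on the log2 scale. All 4 neighbours called lower lie on the side of TMEM200C, and the fifth gene of that side, RAB12, also named after its values were seen, had a log2 fold change of -0.21. Around the other members the median over the 10 nearest analysed genes was -0.18 for EPB41, -0.27 for EPB41L1, 0.05 for EPB41L2, 0.44 for EPB41L4B and -0.08 for EPB41L5 on the log2 fold change scale. Of those 10 genes each, 2 were called lower and 0 higher around EPB41, 1 higher and 0 lower around EPB41L1, 3 higher and 1 lower around EPB41L2, 4 higher and 0 lower around EPB41L4B, and 2 lower and 0 higher around EPB41L5. Over all genes 8.28% were called higher and 11.1% lower.

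**Figure D4:**
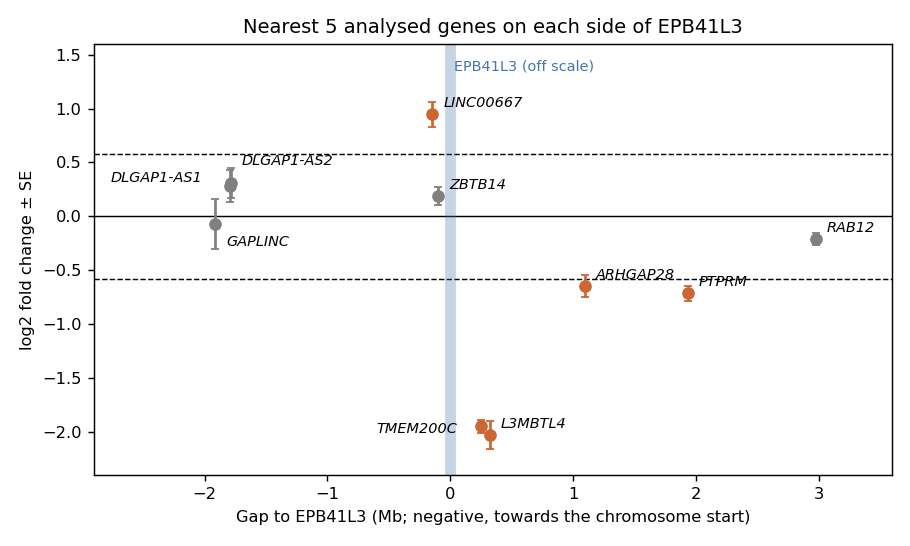
Log2 fold change with its standard error of the 5 nearest analysed genes on each side of EPB41L3, against the gap between the genes in Mb, with called genes in orange and dashed lines at 0.58 on either side of 0. TMEM200C and L3MBTL4 lie at -1.95 and -2.03 just beyond EPB41L3, and ZBTB14 on the other side lies at 0.19.

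Among the spectrin and actin components that these proteins tie together, changes went both ways. Of 27 listed genes 23 were measured and 7 were called (30.4%, against 19.3% of all genes), 4 higher and 3 lower, with a median log2 fold change of -0.06 against 0.00095 over all genes. ADD2, an adducin that caps actin at spectrin junctions, rose from 32.4 ± 1.24 to 54.0 ± 3.54 CPM (log2 fold change 0.74), and MPP1, the scaffold p55 that binds EPB41 protein, rose from 20.3 ± 1.04 to 33.5 ± 0.995 CPM (log2 fold change 0.72). SPTBN1, the main beta spectrin outside red cells, fell from 538 ± 25.4 to 286 ± 26.5 CPM (log2 fold change -0.91). ACTG1, gamma actin, fell from 3308 ± 176 to 1881 ± 144 CPM (log2 fold change -0.81; SD, n = 3 in each). Adjusted p values of these 4 genes (edgeR, Benjamini-Hochberg) were between 6.89e-08 for SPTBN1 and 2.74e-06 for MPP1. The other called genes, named after their values were seen, were SPTB, the red cell beta spectrin, at 1.19, TMOD1, a tropomodulin that caps actin, at 2.39 and ADD3, another adducin, at -1.02. ACTG1 has close paralogs and pseudogenes, so its counts are uncertain.

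Of 27 listed binding partners of these proteins and of CADM1, 26 were measured and 5 were called (19.2%, against 19.3% of all genes), 1 higher and 4 lower, with a median log2 fold change of -0.18. SDC2, the proteoglycan syndecan 2, was the one that rose, from 3.99 ± 0.344 to 8.19 ± 0.769 CPM (log2 fold change 1.03, edgeR, Benjamini-Hochberg adjusted p = 3.06e-05). CNTNAP1, an adhesion molecule of the paranodal junction, fell from 68.2 ± 2.56 to 37.0 ± 0.392 CPM (log2 fold change -0.88, edgeR, Benjamini-Hochberg adjusted p = 4.88e-08). YWHAQ, a 14-3-3 protein, fell from 489 ± 10.7 to 320 ± 1.36 CPM (log2 fold change -0.61, edgeR, Benjamini-Hochberg adjusted p = 5.68e-08; SD, n = 3 in each). The other called genes, named after their values were seen, were CASK, a scaffold kinase, at -0.70 and CNTNAP2, at -1.07. Under library size scaling 4 partners were called, 1 higher and 3 lower. PRMT5, the arginine methyltransferase that binds EPB41L3 protein, named after its values were seen, had a log2 fold change of -0.05 (edgeR, Benjamini-Hochberg adjusted p = 0.435).

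Of 10 nectins and nectin-like adhesion molecules related to CADM1, 7 were measured and 1 was called (14.3%, against 19.3% of all genes), with a median log2 fold change of 0.00081. That gene was CADM2, with 236, 180 and 136 reads in controls against 72, 132 and 118 with overexpression, with a log2 fold change of -0.88 (SE 0.18, edgeR, Benjamini-Hochberg adjusted p = 0.000912). Its control libraries spread widely, and the groups did not overlap. A further 4 genes passed on adjusted p alone, named after their values were seen. NECTIN1 and CADM4 were lower, at -0.50 and -0.33, and PVR and NECTIN3 were higher, at 0.44 and 0.40.

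Of 21 listed polarity proteins, among which EPB41L5 and EPB41L4B act, 18 were measured and 2 were called (11.1%, against 19.3% of all genes), both lower, with a median log2 fold change of -0.21. PRKCZ, the atypical protein kinase C zeta, fell from 46.3 ± 1.92 to 27.7 ± 1.57 CPM (SD, n = 3 each), with a log2 fold change of -0.74 (edgeR, Benjamini-Hochberg adjusted p = 1.23e-06). LIN7A, a scaffold of the Crumbs complex, had 27, 29 and 15 reads in controls against 2, 3 and 3 with overexpression, a ratio of 9.49 (95% interval 4.56 to 22.8, exact, covering counting error only). Without overexpression replicate 2 this list had 4 called genes, all lower, and with at least 10 counts in every library, which leaves out LIN7A, it had 1.

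Of 42 other genes for FERM domain proteins 35 were measured and 9 were called (25.7%, against 19.3% of all genes), 3 higher and 6 lower, with a median log2 fold change of -0.23. FRMD4A, a scaffold of epithelial polarity, rose from 3.78 ± 0.247 to 24.8 ± 2.77 CPM (log2 fold change 2.71), and PTPN3, a tyrosine phosphatase, rose from 11.1 ± 0.968 to 35.4 ± 3.03 CPM (log2 fold change 1.68). MYO10, the unconventional myosin of filopodia, fell from 257 ± 7.48 to 98.7 ± 4.47 CPM (log2 fold change -1.38; SD, n = 3 in each). Adjusted p values of these 3 genes (edgeR, Benjamini-Hochberg) were 1.19e-09, 8.85e-09 and 1.72e-10. FRMD3 had 70, 62 and 64 reads in controls and 0, 0 and 0 with overexpression, which is at least 23.1-fold lower against a floor of 3 counts per library. It passed the filter on low counts only through the controls, so it had to differ. With at least 10 counts in every library, which leaves out FRMD3, 8 of 34 were called, 3 higher and 5 lower. The other called genes, which are named after their values were seen, were FRMD4B at 1.05, PLEKHH1 at -0.98, FARP2 at -0.87, SNX17 at -0.86 and TLN2 at -0.83. On adjusted p alone 24 of the 35 passed, 6 higher and 18 lower, against 57.6% of all genes, 28.3% higher and 29.3% lower. The uncalled ones that were higher, also named after their values were seen, were PTK2B at 0.51, FRMD8 at 0.40 and MSN at 0.16. PTPN3 is also the nearest analysed gene to EPB41L4B on one side, 54.6 kb away, and the pair changed in opposite directions. EPB41L3, which was chosen for its near 0 control counts and its rise, and FRMD3 were at or under the floor in opposite groups. This is a description only.

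**Figure D5:**
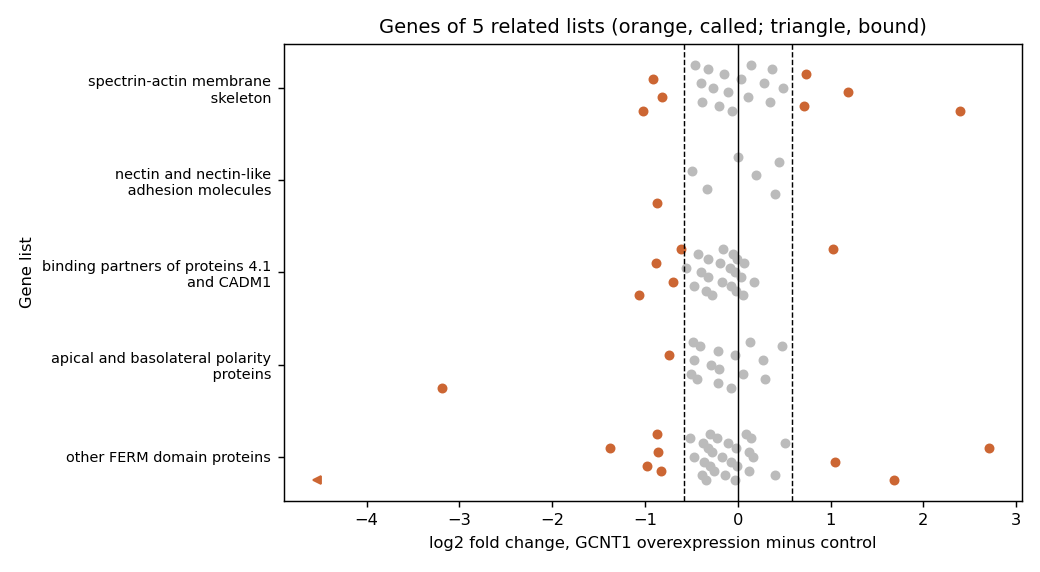
Log2 fold change of each measured gene of 5 related lists, with called genes in orange, other genes in grey, dashed lines at 0.58 on either side of 0, and FRMD3 drawn as a triangle at its bound of -4.53. Called genes lie on both sides in 3 of the lists (spectrin and actin skeleton, binding partners, other FERM domain proteins) and only on the lower side in the nectin and polarity lists.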

How the data were processed

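RNA from 3 control and 3 GCNT1 overexpressing PC3 lines was made into stranded mRNA libraries and sequenced by the authors, who used Cutadapt for trimming, HISAT2 for mapping to hg38 and featureCounts for counting, and tested with limma-voom. The deposited values are raw counts per gene and library, not normalised, and all 6 libraries were used. Gene annotation, strand setting and low-count filter are not given in the sources used here. Of 12703 Entrez identifiers 12661 matched a RefSeq symbol.

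The tests ran in edgeR 4.0.16 under R 4.3.3 (filterByExpr, which kept all 12703 genes, TMM factors, quasi-likelihood test of the 2 groups, Benjamini-Hochberg adjustment over all genes, no replicate block). The standard error is the log2 fold change divided by the square root of F. A gene was called when its adjusted p was under 0.05 and its log2 fold change was 0.58 or more in size, as in the study. CPM are TMM-normalised, and lengths are the union of GENCODE 44 exons, found for 12466 genes. Named genes were the members, GCNT1, the 3 genes most like EPB41L3, the nearest gene on each side of EPB41L3 (and of CADM1, not analysed here), and per list the 2 called genes with the smallest adjusted p in each direction, and other genes of the lists and neighbourhoods are marked where they are named. The members and lists were chosen with earlier results of these data known. An exact permutation test of 3 against 3 cannot go below p = 0.10.

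Each library counted as 1 sample. Libraries of 1 group differed by more than sampling noise (chi-square per degree of freedom 1.65 to 5.61), which does not tell whether the transductions were separate. Same-numbered libraries had deviations that correlated between -0.27 and -0.0024, so the numbers were not taken as pairs. Alternatives were limma-voom (limma 3.58.1), DESeq2 1.42.0, RLE factors, library size, no filter, 10 counts in every library, the replicate block, adjusted p alone, and each library left out. The tests were first tested on simulated data. Part of the marker check is not reported here.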

Additional observations from a re-analysis of the deposited data

How the results depend on the processing

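Of the 5 members other than EPB41L3, 2 were called (19.3% of all genes were), and these 2 were called under limma-voom, DESeq2, RLE factors, library size, no filter, 10 counts in every library and the replicate block. Without GCNT1 overexpression replicate 1 only EPB41L2 was called and EPB41L5 was not (-0.52). EPB41L3 was chosen by its change, so its own call says nothing on stability, and it adds 1 to these counts wherever it passes the filter, which gives 2 to 3 with each library left out. On adjusted p alone, which 57.6% of all genes passed, 4 of the 5 other members passed (5 with EPB41L3), as did 18 genes of the spectrin and actin list, 5 of the nectin list, 14 of the binding partner list, 10 of the polarity list and 24 of the FERM list. The polarity list had 1 called gene at 10 counts in every library, and with libraries left out it had 2 to 4, the 4 being without GCNT1 overexpression replicate 2. EPB41 changed sign, uncalled throughout, at 0.030 with library size alone, 0.026 without control replicate 1 and 0.0070 without overexpression replicate 1, and ran from -0.066 to 0.026 with libraries left out. The replicate block changed no call of a member, where every same-numbered pair correlated below 0.1. The share of EPB41L3 in the family with overexpression was 18.7% by exon length, 24.8% by canonical transcript length and 20.8% without length, and the summed level of the 6 genes was 11.1% lower by exon length and 3.34% lower by canonical length. The canonical length and the scaling without length were chosen after seeing the data. Library size alone moved the median of all genes to 0.06 and called 1283 genes higher and 1230 lower, where TMM called 1052 and 1405. Depth limits EPB41L3 in controls, where 6 counts set the width of its ratio.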
